A study of Homo sapiens with 15 samples.

Results

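The regions described here carried the cohesin subunit SMC3 in TF-1 cells with wild-type (WT) RAD21 but had no SMC3 call in cells with RAD21 Q592*, while the transcription factor GATA2 was called there in both lines. TF-1 is a human erythroleukemia cell line. Each line was transduced with an inducible vector, either for RAD21 Q592*, in which a stop codon replaces glutamine, or for WT RAD21, and both lines received doxycycline for 6 days before ChIP-seq. The labels do not state what became of the endogenous RAD21 gene or whether a line is a clone. Of the 15 samples 11 are ChIP libraries, with 2 per line and target except for the single Q592* RUNX1 library, and 4 are inputs. They are represented by 6 lists of peaks, 1 pooled list per line and target, so no spread between libraries can be given and no test between the lines was possible.

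Cohesin is a ring of SMC1A, SMC3, RAD21 and a STAG protein that holds sister chromatids together and extrudes chromatin loops. Its strongest sites are known as the places where loop extrusion is halted by CTCF, and weaker cohesin signal is known at active enhancers. GATA2 is a zinc finger factor that binds GATA motifs at enhancers of blood stem and progenitor cells, and RUNX1 is a Runt domain factor that often binds the same enhancers.

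Peaks of the 6 lists that shared at least 1 bp were joined, which gave 96158 regions on the autosomes. Of these, 4935 had an SMC3 peak in WT and none in Q592*, and a GATA2 peak in both lines. They are called lost-cohesin GATA2 regions below, where lost means only that no peak was called in Q592*. A further 4556 regions had SMC3 and GATA2 in both lines (retained), and 22296 had GATA2 in both lines and SMC3 in neither. The members were chosen by the measured SMC3 and GATA2 peak calls of both lines, so the differences in SMC3 given below describe that choice and were not tested. RUNX1 calls were not part of it. Joining by overlap limits the spacing of summits. Asking for GATA2 in both lines limits how far GATA2 coverage could differ between them, so both are partly set by the choice.

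Peak strength is given by 2 measures, both taken at the strongest peak of a region. The −log10 q is the authors' own value for each peak. Relative coverage is the number of ChIP reads over the summit, recovered from the fold and p-value of the peak, divided by the number that an even spread of the reads over the genome would give, so that 1 is the genome-wide background. The local background of a peak is given on the same scale.

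The WT SMC3 peaks at the lost-cohesin GATA2 regions were weaker than those of regions that kept their SMC3 call, and similar in strength to other lost SMC3 peaks. Their median −log10 q was 6.09, with an interquartile range from 4.52 to 8.41 and a highest value of 29.9. Their median relative coverage was 6.63, with an interquartile range from 5.59 to 8.28. The retained regions had a median −log10 q of 13.2 and a median relative coverage of 10.6 for the same WT list. SMC3 regions called in both lines with no GATA2 or RUNX1 had a median relative coverage of 20.3 in WT. WT SMC3 regions lost with neither factor present had a median relative coverage of 6.83 and a median −log10 q of 6.72. The median width of the WT SMC3 peak was 205 bp at the lost-cohesin regions, 358 bp at the retained regions and 166 bp at those lost with neither factor. A −log10 q under 10 was found at 4188 of the 4935 members (84.9%) at 1701 of the 4556 retained regions (37.3%) and at 75.3% of those lost with neither factor.

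Every list ends at a −log10 q of about 2, which sets the values on either side of the calling threshold. The 5 weakest members all had a WT SMC3 −log10 q of 2.01 and a relative coverage of 4.76, and they lay on chromosomes 1, 6, 9 and 11. The 5 retained regions with the weakest Q592* SMC3 peak had a −log10 q of 2.00 to 2.01 in Q592*, at a relative coverage of 8.04 to 8.80 there, and of 7.04 to 15.5 in WT.

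On the autosomes the SMC3 list held 41215 peaks in WT and 31878 in Q592*, so the longer WT list alone leaves some WT calls without a partner. Among all 40491 autosomal regions with SMC3 in WT, 11710 (28.9%) had no SMC3 call in Q592*. At the 9491 regions that also had GATA2 in both lines the share was 52.0% (4935 regions, 95% interval 51.0 to 53.0%). At the 27748 WT SMC3 regions with neither GATA2 nor RUNX1 it was 19.8% (19.3 to 20.3%). The WT SMC3 regions at GATA2 were weaker, so the shares are also given at equal WT SMC3 coverage. They are not matched for local background. At regions that kept SMC3, its median in the SMC3 lists was 2.22 in Q592* and 1.83 in WT with GATA2 in both lines. With neither factor it was 2.38 in Q592* and 2.34 in WT. Below a relative coverage of 5 the loss was 84.1% at GATA2 regions and 86.6% at regions without either factor. From 8 to 10 it was 51.4% (48.95 to 53.8%) and 35.2% (33.35 to 37.05%), and from 10 to 15 it was 32.4% (30.1 to 34.8%) and 16.9% (15.85 to 17.9%). At 15 or more, 80 of 1460 GATA2 regions (5.48%) and 217 of 14979 regions without either factor (1.45%) had no Q592* call. The intervals cover counting error only. With the lists of the 2 lines cut to equal lengths, 33.6% of WT SMC3 regions at shared GATA2 had no Q592* call. At that setting it was 10.8% of those with GATA2 in neither line.

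At equal strength the loss differed with RUNX1. Where GATA2 was present without RUNX1 in either line, 64.8% (61.0 to 68.4%) of the WT SMC3 regions with a relative coverage of 8 to 10 had no Q592* call. Where GATA2 and RUNX1 were both present in both lines the share was 38.8% (35.35 to 42.4%), close to the 35.2% of regions without either factor. From 6 to 8 the 3 shares were 78.2%, 56.6% and 57.5%. From 10 to 15 they were 40.5%, 26.3% and 16.9%, so that in this range the regions with both factors also lay above those with neither. At 15 or more the shares at GATA2 stood in the opposite order. They were 2.90% (24 of 827, 1.96 to 4.28%) without RUNX1 and 7.61% (34 of 447, 5.49 to 10.4%) with RUNX1 in both lines. Of these 34 regions, 10 lay in 1 group with high local background at chr16:46388276-46429950, described below. The order without that group was not computed.

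**Figure D1:**
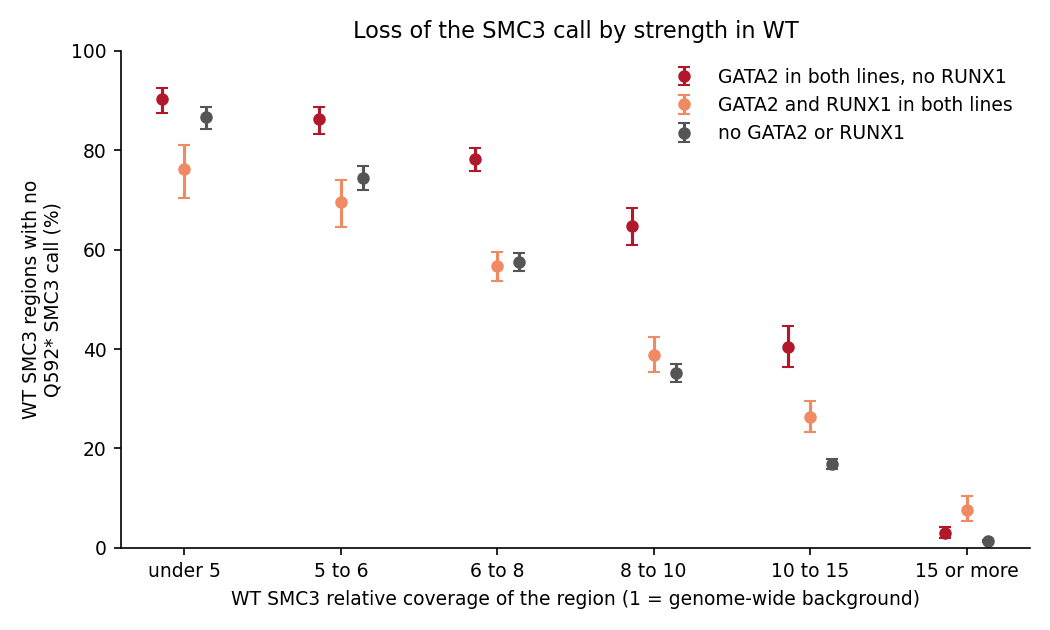
Percentage of WT SMC3 regions with no Q592* SMC3 call (vertical axis) in bins of WT SMC3 relative coverage (horizontal axis), for regions with GATA2 in both lines and no RUNX1, with GATA2 and RUNX1 in both lines, and with neither factor; bars are 95% Wilson intervals. From 6 to 15 the regions with GATA2 alone lie above the other classes, for example 64.8% against 38.8% and 35.2% at 8 to 10.

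RUNX1, which the choice of regions did not use, was called in 1 or both lines at many lost-cohesin regions. It was present in both lines at 1555 of 4935 (31.5%, 30.2 to 32.8%), in Q592* only at 560 (11.35%, 10.5 to 12.3%), in WT only at 255 (5.17%, 4.58 to 5.82%) and in neither at 2565 (52.0%, 50.6 to 53.4%). Over all 32433 regions with GATA2 in both lines the shares were 18.4%, 10.6% and 2.16% for RUNX1 in both lines, in Q592* only and in WT only. The share of members with RUNX1 in Q592* only was therefore close to that of all GATA2 regions. With the lists of the 2 lines cut to equal lengths it was 3.68% of the members. That setting shortens the Q592* RUNX1 list from 15582 to 9603 peaks. The share over all GATA2 regions was not computed there, so 3.68% says nothing particular to the members. Of the retained regions 45.04% had RUNX1 in both lines and 2.68% in WT only, and of the GATA2 regions without SMC3 9.80% and 1.42%.

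**Figure D2:**
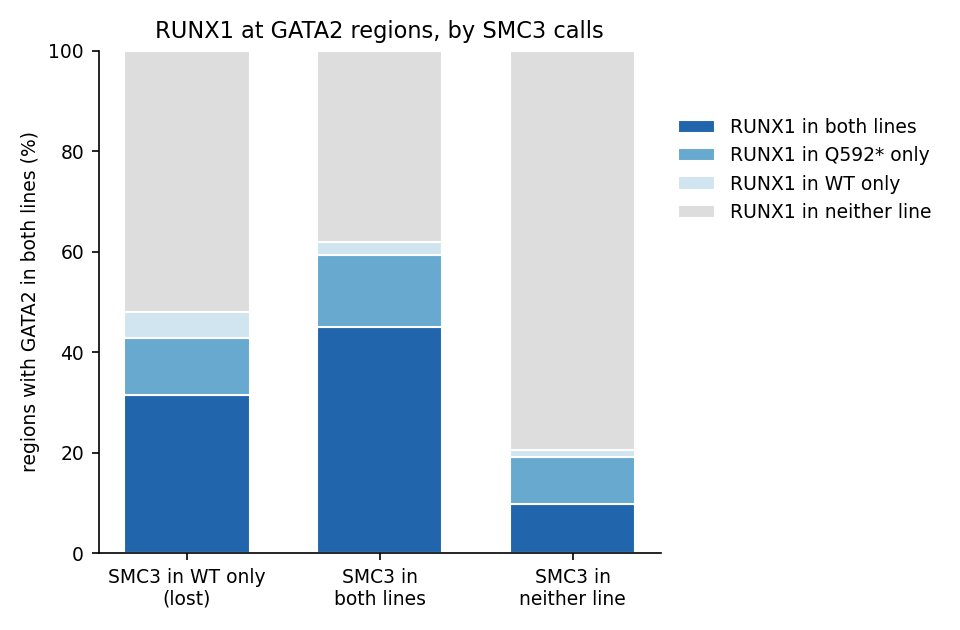
Percentage of GATA2 regions (vertical axis) with RUNX1 in both lines, in Q592* only, in WT only or in neither, for regions whose SMC3 call was lost, kept in both lines or absent from both. RUNX1 in both lines makes up 31.5% of the lost-cohesin regions, 45.04% of the retained regions and 9.80% of the regions without SMC3.

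RUNX1 in both lines was more frequent at lost-cohesin regions than at GATA2 regions without SMC3 in each of the 4 quartiles of WT GATA2 relative coverage. In the weakest quartile RUNX1 was present in both lines at 14.1% (11.6 to 17.2%) of the lost-cohesin regions, 11.7% (9.03 to 15.1%) of the retained regions and 3.74% (3.33 to 4.21%) of those without SMC3. In the strongest quartile the shares were 47.05% (44.8 to 49.3%), 62.5% (60.6 to 64.4%) and 24.7% (23.2 to 26.2%). In the second weakest quartile they were 17.6% (15.3 to 20.15%) at lost-cohesin and 17.7% (14.8 to 21.0%) at retained regions. In the second strongest they were 28.3% (26.1 to 30.6%) and 31.2% (28.4 to 34.1%). Lost-cohesin and retained regions thus stood apart in their intervals only in the strongest quartile. The length of the joined regions was not matched, and its part in these shares was not tested. Its median was 481 bp at lost-cohesin regions, 627 bp at retained regions and 346 bp at those without SMC3. In the weakest quartile it was 368 bp at lost-cohesin regions and 301 bp at those without SMC3.

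The share of the call lost also followed RUNX1 within the 9491 WT SMC3 regions at shared GATA2. It was 59.7% (58.2 to 61.2%) with RUNX1 in neither line, 67.6% (62.8 to 72.2%) with RUNX1 in WT only, 46.2% (43.45 to 49.1%) with RUNX1 in Q592* only, and 43.1% (41.5 to 44.7%) with RUNX1 in both. These shares are not matched for SMC3 strength. At a WT SMC3 coverage of 6 to 8 the share was 76.6% (68.4 to 83.2%) with RUNX1 in WT only and 78.2% (75.7 to 80.5%) with RUNX1 in neither line, and at 8 to 10 it was 70.4% (59.0 to 79.8%) and 64.8%, so that the 2 classes overlapped in their intervals.

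GATA2 coverage was higher in Q592* than in WT at almost all lost-cohesin regions. Its relative coverage had a median of 20.1 in Q592* (interquartile range 12.98 to 31.6) and of 11.55 in WT (7.87 to 17.1). The median log2 ratio of Q592* over WT was 0.80, with an interquartile range from 0.58 to 0.99. It was positive at 4862 of 4935 regions (98.5%), compared with 97.8% of all regions with GATA2 in both lines, and GATA2 was at least 2-fold higher at 1182 (23.95%), compared with 21.8%. These shares are near those of all GATA2 regions. The 73 members with lower GATA2 coverage in Q592* made up 1.48%, against 2.24% of all. The median log2 ratio was 0.87 at the retained regions, 0.68 at GATA2 regions without SMC3 and 0.74 over all of them. Within the strongest quartile of WT GATA2 coverage the medians were 0.85, 0.90 and 0.79 for lost-cohesin, retained and SMC3-free regions, and within the weakest quartile they were 0.72, 0.70 and 0.63. At equal WT SMC3 coverage the lost-cohesin regions had the lower ratio, with medians of 0.81 at lost-cohesin and 0.97 at retained regions for a coverage under 8, 0.79 and 0.88 for 8 to 15, and 0.64 and 0.77 for 15 or more. These differences are smaller than the interquartile range within each class, and no test was possible on 1 list per line. The narrowest peak of the GATA2 list, taken as the length to which reads were extended, was 157 bp in Q592* and 150 bp in WT, a log2 difference of 0.066 that can move these ratios by about that much. This is not the only limit, since the lists differed as a whole. The GATA2 list held 59009 peaks in Q592* and 38962 in WT, with a median relative coverage of 10.1 and 7.87. Whether the pooled libraries differ in ChIP enrichment was not tested.

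**Figure D3:**
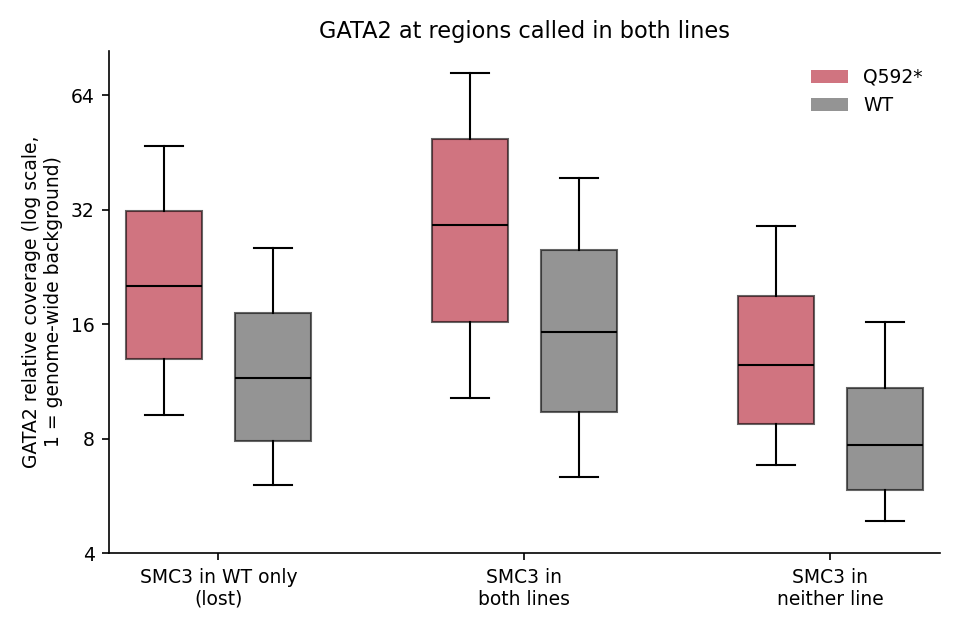
GATA2 relative coverage on a log scale (vertical axis) in Q592* and WT at regions whose SMC3 call was lost, kept in both lines or absent from both; lines are medians, boxes the interquartile range and whiskers the 10th and 90th percentiles over regions of 1 pooled list each. Q592* lies above WT in each class, with medians of 20.1 and 11.55 at the lost-cohesin regions.

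GATA2 peaks of the lost-cohesin regions were stronger than those of GATA2 regions that never carried an SMC3 call. The median WT relative coverage was 11.55 at the lost-cohesin regions, 15.2 at the retained regions and 7.70 at those without SMC3. Across the 4935 members WT SMC3 coverage and WT GATA2 coverage had a Spearman rho of 0.45, while WT SMC3 coverage and the log2 ratio of GATA2 had one of -0.044. Which inputs entered each list is not stated in the labels, a shared background can raise such a correlation, and regions are not independent replicates. The GATA2 summits of Q592* and WT lay a median of 19 bp apart and within 50 bp at 4181 regions (84.7%). At the 1555 members with RUNX1 in both lines, the median log2 ratio of RUNX1 coverage was 0.62, against 0.70 at the retained regions and 0.57 at the regions without SMC3, with a single Q592* library behind these values.

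The WT SMC3 summits sat close to the GATA2 summits, which the joining of overlapping peaks largely sets. At the members the median width was 205 bp for the WT SMC3 peak and 352 bp for the WT GATA2 peak. No expected spacing was computed. The median distance between these summits was 56 bp at the lost-cohesin regions (interquartile range 25 to 107 bp) and 63 bp at the retained ones (27 to 129 bp). They lay within 50 bp of each other at 2263 members (45.9%, 44.5 to 47.25%) and at 42.5% (41.1 to 43.9%) of the retained regions, and within 200 bp at 90.6% and 85.1%. Distances from SMC3 to RUNX1 were similar, with medians of 56 and 64 bp, whereas RUNX1 and GATA2 summits were nearer to each other, with medians of 39 and 40 bp. In 4856 of the members (98.4%) the WT SMC3 peak itself touched a WT GATA2 peak, so few members were joined only through other peaks.

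**Figure D4:**
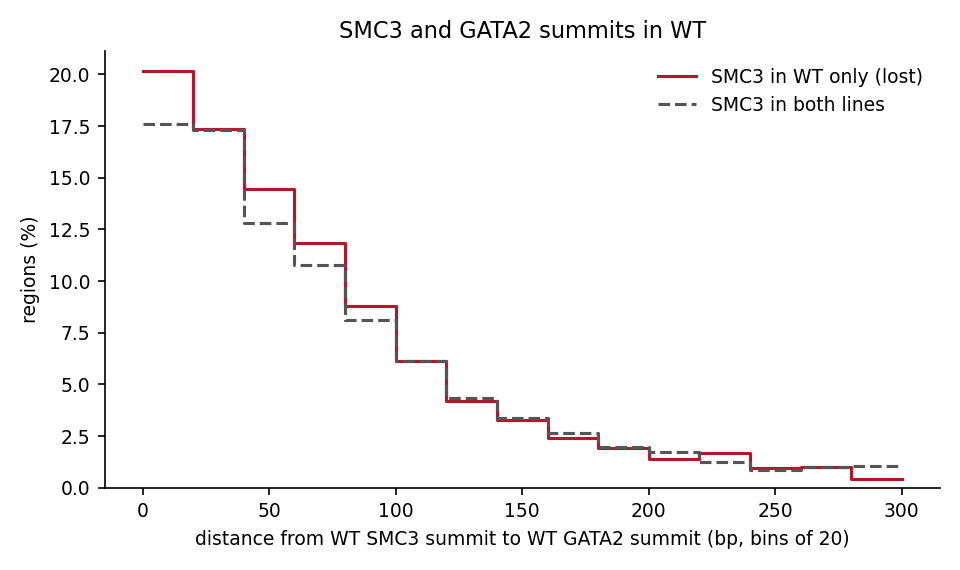
Distance in bp from the WT SMC3 summit to the WT GATA2 summit (horizontal axis, bins of 20 bp) and the percentage of regions in each bin (vertical axis) for regions whose SMC3 call was lost and those that kept it. Both curves fall steeply from 0 bp, with medians of 56 and 63 bp; distances of 300 bp or more are not drawn.

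The local background differed between the lines at these regions. At the GATA2 summits of the lost-cohesin regions its median was 2.23 in Q592* and 1.53 in WT, and it was higher in Q592* at 4163 of 4935 (84.4%). At the retained regions the medians were 2.21 and 1.81, with a higher value in Q592* at 71.5%, and over all regions with GATA2 in both lines it was higher in Q592* at 71.5%. A higher background demands more ChIP reads for a call. The share of calls lost went along with it. It was 37.3% (35.2 to 39.4%) where the Q592* background was below that of WT and 67.4% (64.5 to 70.2%) where it was higher by at least 1 on the log2 scale. Between these ends it was 49.5% for a difference of 0 to 0.5 and 61.7% for 0.5 to 1. At a WT SMC3 relative coverage of 6 to 8 these shares were 52.5%, 60.8%, 75.7% and 82.8% in order of rising background difference, and at 15 or more they were 4.73%, 5.82%, 7.40% and 1.71%. The part of background in the loss was not tested. Where the Q592* background was the lower one, 772 of 2071 calls were lost. The median log2 difference in background was 0.36 both for regions with RUNX1 in neither line and for those with RUNX1 in both, 0.70 for those with RUNX1 in WT only and 0.16 for those with RUNX1 in Q592* only.

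**Figure D5:**
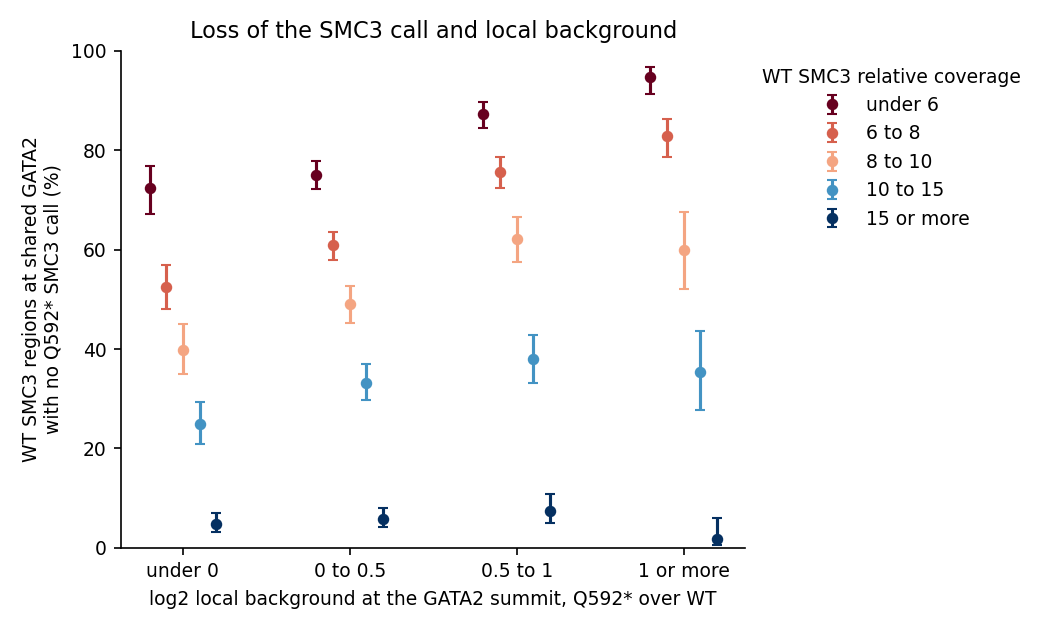
Percentage of WT SMC3 regions at shared GATA2 with no Q592* SMC3 call (vertical axis) against the log2 difference in local background at the GATA2 summit, Q592* over WT (horizontal axis), by WT SMC3 relative coverage; bars are 95% Wilson intervals. Between 6 and 8 the share is 52.5% where the background is lower in Q592* and 82.8% where it is higher by at least 1.

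The missing calls set a ceiling on SMC3 in Q592*. From the Q592* background at the GATA2 summit, the highest relative coverage that would have stayed below the calling threshold had a median of 5.55 at the members. At 3831 of 4935 (77.6%) it was below the coverage measured in WT, with a median log2 ratio of -0.27 over all members. At 1104 members (22.4%) the WT coverage itself would not have been called on the Q592* background. At 59 members the ceiling was at least 2-fold below WT. The ceiling is approximate. At the retained regions, 105 of 4556 Q592* SMC3 peaks (2.30%) were called at or below it. This count cannot show uncalled regions with coverage above the ceiling, since those have no Q592* value. The background came from the GATA2 list. At retained regions it differed from that of the SMC3 list by -0.61 to 0.56 on the log2 scale (5th to 95th percentile). The narrowest SMC3 peak was 151 bp in Q592* and 126 bp in WT, a log2 difference of 0.26, and reads extended further can lower relative coverage by up to that amount. Allowing for it, 2488 members (50.4%) had a ceiling below WT. At the retained regions, where both lists had a value, the median log2 ratio of SMC3 coverage was -0.080 (interquartile range -0.25 to 0.10), which is also within that amount.

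The single strongest members show the range of the data. The member with the highest WT SMC3 −log10 q (29.9) lay at chr16:46419417-46420079 (hg19), with an SMC3 relative coverage of 23.4 in WT. Its GATA2 relative coverage was 17.9 in Q592* and 21.1 in WT, and RUNX1 was called in both lines. Its local background was 8.82 in Q592* and 5.10 in WT at the GATA2 summit. It belongs to a group of members with high background on chromosome 16, described below. The next, at chr5:119428979-119429216, had an SMC3 fold enrichment of 7.20 and a relative coverage of 14.1 in WT, and its ceiling in Q592* was 5.74. GATA2 had a relative coverage of 13.8 in Q592* and 7.70 in WT there, and RUNX1 was absent from both lines.

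At chr6:88654299-88654681 the WT SMC3 relative coverage was 12.4 against a Q592* ceiling of 6.12, with GATA2 at 9.90 in Q592* and 6.53 in WT. The member at chr11:93355225-93355559 had the highest SMC3 fold enrichment of the 10 strongest, at 8.66 over a background of 1.00 in WT, and its GATA2 relative coverage was 19.3 in Q592* and 11.9 in WT. These regions carried no RUNX1 peak. The region at chr1:89760706-89761295 combined strong GATA2 with a lost SMC3 call. GATA2 relative coverage there was 82.6 in Q592* and 40.01 in WT, RUNX1 was 34.0 in Q592* and 18.2 in WT, and SMC3 was 11.0 in WT against a ceiling of 5.17 in Q592*.

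Of the 10 members with the strongest WT SMC3 peaks, 3 carried RUNX1 in both lines and 7 in neither. The others lay at chr14:22865543-22865976, chr4:170331918-170332416, chr3:132522773-132523218, chr13:95068819-95069268 and chr3:38846820-38847631. Their WT SMC3 relative coverage was 11.0 to 18.4, and their Q592* ceilings were 4.02 to 11.7. The lowest of these ceilings belonged to chr3:38846820-38847631, where the WT coverage was 11.0 and the Q592* background at the GATA2 summit was 1.35. The SMC3 and GATA2 summits of WT lay 346 bp apart in this region, so that background was not taken at the SMC3 summit. GATA2 was higher in Q592* at each of these 5, with log2 ratios from 0.18 on chromosome 14 to 0.92 at chr3:38846820-38847631.

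The 5 members with the strongest GATA2 in Q592* had a WT SMC3 relative coverage of 6.00 to 10.6, against a median of 6.63 over all members. The strongest, at chr20:37576341-37577099, had a GATA2 relative coverage of 113 in Q592* and 67.8 in WT and an SMC3 relative coverage of 10.6 in WT, and RUNX1 was called in Q592* only (12.7). The region at chr11:127603242-127604072 had GATA2 at 107 in Q592* and 58.3 in WT, and RUNX1 at 28.8 in Q592* and 12.98 in WT. The region at chr11:17208318-17209152 had GATA2 at 90.4 in Q592* and 45.7 in WT and a weak WT SMC3 peak, with a −log10 q of 2.66. The others, at chr6:71047010-71047767 and chr2:208824655-208825649, had GATA2 at 106 and 90.7 in Q592* and at 59.6 and 46.9 in WT.

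The members with the strongest RUNX1 in Q592* had RUNX1 in WT as well. At chr4:164816237-164816981 RUNX1 relative coverage was 59.96 in Q592* and 27.4 in WT, and GATA2 was 57.8 in Q592* and 26.8 in WT, with a local GATA2 background of 1.00 in both lines. SMC3 there was 5.38 in WT with a ceiling of 3.44 in Q592*. At chr1:8918123-8918865 RUNX1 was 80.8 in Q592* and 50.6 in WT, and at chr1:155733785-155734148 it was 62.1 in Q592* and 31.9 in WT. At chr2:113463746-113464292 RUNX1 was 72.3 in Q592* and 42.4 in WT, and at chr2:173260132-173260741 it was 65.8 in Q592* and 39.5 in WT. The ceiling at chr2:113463746-113464292, 10.5, was above the WT SMC3 coverage of 10.1, so the missing call does not show a lower SMC3 coverage at that place. No gene is assigned to any of these places, since annotation of hg19 was not used here.

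Lost-cohesin GATA2 regions were found on all 22 autosomes. Among WT SMC3 regions at shared GATA2 the share without a Q592* call ran from 41.5% (49 of 118, 33.0 to 50.55%) on chromosome 19 to 61.75% (113 of 183, 54.5 to 68.5%) on chromosome 18. On chromosome 13 it was 56.4% (51.5 to 61.3%). Among 187 windows of 5 Mb with at least 20 such regions it ranged from 28.0% to 73.3%, with a median of 51.3% and an interquartile range of 45.45 to 56.8%. The highest value, 22 of 30, was between 130 and 135 Mb of chromosome 6.

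Most members stood alone. With a gap of at most 25 kb allowed, 3529 of 4935 had no other member near them, and 932 formed pairs. The largest group held 11 members at chr16:46388276-46429950, where the WT SMC3 local background was 4.94 to 33.9 times the genome-wide value and RUNX1 was called in both lines at 10 of the 11. GATA2 was not higher there as elsewhere: the log2 ratio of Q592* over WT had a median of -0.17. The next group, 7 members at chr6:26296109-26337535, had a local background of 2.22 to 3.21 and a median log2 GATA2 ratio of 0.61. A group of 6 at chr11:128515686-128599451 had a median log2 GATA2 ratio of 0.80, and 20 Q592* and 16 WT GATA2 regions lay in its span.

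The nearest Q592* SMC3 region was a median of 16.4 kb away from a lost-cohesin region. It was within 1 kb at 154 members (3.12%) and within 10 kb at 1777 (36.0%). From the GATA2 regions without SMC3 it was a median of 21.0 kb away, within 1 kb at 2.12% and within 10 kb at 28.5%, and from the retained regions the next one was within 10 kb at 40.2%. Of the WT SMC3 regions lost with neither factor present, 10.7% had one within 1 kb. The nearest retained GATA2 region was a median of 69.7 kb from a lost-cohesin region and 124 kb from a GATA2 region without SMC3. The nearest Q592* SMC3 region without either factor was at a similar distance from both, 34.2 and 33.4 kb.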

How the data were processed

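Peak lists of 11 ChIP libraries, pooled per line and target, were analysed. Per the submitters' processing notes, the authors used Bowtie2, Picard and MACS2 on hg19. No version or setting is stated there. The deposited fold enrichment is the ratio of ChIP pileup to local background at the summit. The deposited −log10 p and −log10 q are those of the summit, and the deposited score only restates the −log10 q and was left out. The lowest −log10 q of a list was 2.00 to 2.05, so weaker peaks cannot be seen.

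Read pileup was recovered by assuming that fold and p come from a whole number of reads over a Poisson background. Within a tolerance of 0.002 on the deposited −log10 p, at least 99.997% of the peaks in any list came out whole, compared with at most 1.77% with the worth of a read set wrong by 3%. On 2 simulated lists, of 5761 and 5906 peaks, 99.98% and 99.97% of the pileups came back exact. Relative coverage assumes that the genome-wide background is the commonest and lowest background of a list, and also depends on the length to which reads were extended, which was taken from the narrowest peak.

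Depth per library is unknown, since the lists are pooled. Where a region held several peaks of a list, the strongest was used. The Q592* background for the SMC3 ceiling came from the Q592* GATA2 list, whose background differed from that of the SMC3 list by a median of -0.0075 on the log2 scale at retained regions (5th to 95th percentile -0.61 to 0.56). Shares carry 95% Wilson intervals, for counting error only. Gene lists were planned but not used here, because the annotation at hand is of another build than the peaks. The members, bins and lists were chosen with earlier results of these data known. Regions named by position are the 10 members with the highest WT SMC3 −log10 q, the 5 with the highest Q592* GATA2 and the 5 with the highest Q592* RUNX1 −log10 q, and the 5 on each side of the threshold. Coordinates are those of hg19, counted from 1. Alternatives were other thresholds, equal list lengths, other overlap rules and other sets of chromosomes. Versions were matplotlib 3.10.9, scipy 1.17.1, pandas 2.3.3, numpy 2.4.6 and Python 3.11.15.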

Additional observations from a re-analysis of the deposited data

How the results depend on the processing

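No paired analysis was possible because each list merges its libraries and no peak has a replicate number, and no library could be left out for the same reason. The threshold of the lists limits all counts of lost calls. The share of WT SMC3 calls lost was higher with GATA2 in both lines than with GATA2 in neither under all 10 alternatives, by 22.8 to 38.6 percentage points, against 31.75 as reported (52.0% and 20.2%). None of these differences is matched for WT SMC3 strength or for local background. In the main setting the shares were 84.1% and 86.9% below a WT SMC3 relative coverage of 5. They were 51.4% and 36.4% from 8 to 10, and 5.48% and 1.48% at 15 or more. The cause of the changes between alternatives was not tested, except that equal lengths shorten the WT SMC3 list by construction. The alternatives, applied to these values after the data were seen, kept the median GATA2 log2 ratio between 0.78 and 0.86 and the median summit distance between 49 and 57 bp. With a −log10 q of at least 5 the lost shares were 53.3% with GATA2 and 17.2% without, and RUNX1 in both lines was at 33.9% of members. With at least 10 there were 1525 members, 13.5% were lost without GATA2, and RUNX1 was in both lines at 39.0% and in Q592* only at 12.7%. Equal list lengths gave 1710 members, 33.6% and 10.8% lost, and RUNX1 in both lines at 30.2% and in Q592* only at 3.68%. Direct overlap gave 53.2% lost with GATA2. A reciprocal overlap of 50% gave 2274 members, 53.6% and 29.6% lost, and RUNX1 in both lines at 25.4%. Summits within 200 bp gave 55.5% and 22.2%. Counting a Q592* SMC3 peak within 1000 bp as retained gave 48.85% and 17.55%. Leaving out regions with a WT SMC3 local background above 5, chosen after the data were seen, gave 53.2% and 23.3%. With all chromosomes, and without chromosome 13, no value moved beyond its interval. Counts of gene lists were not run.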

Other observations

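SMC3 was also called in the opposite pattern, at 646 regions with GATA2 in both lines, where it was found in Q592* and not in WT. Their median GATA2 log2 ratio of Q592* over WT was 0.91. RUNX1 was present in Q592* only at 26.01% of them and in WT only at 0.93%. A WT SMC3 local background above 5 was found at 108 lost-cohesin regions, 11 of them on chromosome 16. That chromosome held 76 of all 4935 members. GATA2 was lower in Q592* at 12 of these 108. Over all members it was lower at 73 of 4935 (1.48%), and over all regions with GATA2 in both lines at 2.24%.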
